A study of Mus musculus with 11 samples.

Results

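The 10 genes followed here mark mural cells and embryonic mesenchyme, and their transcripts were measured along the emergence of hematopoietic stem cells (HSCs). They are Pdgfrb, Pdgfra, Cspg4, Rgs5, Cd248, Dcn, Lum, Tcf21, Prrx1 and Twist1. They were chosen by name, with earlier results of these data known. Each of the 10 had 1 row among the 37820 gene IDs of the expression table. RNA-seq covered 11 libraries of 5 sorted mouse populations. Endo (2 libraries) and hemogenic endothelium, HE (2 libraries), came from E10.5 embryos, pre-HSCs (3 libraries) were labelled E10.5 but are given as E11.5 in the study's methods, FL HSCs (2 libraries) were sorted from fetal liver at E14.5 and BM HSCs (2 libraries) from bone marrow of mice aged 6 to 8 weeks. Endo and HE were both CD31+ cells of the major arteries without CD45 and CD41 that came from embryos carrying a GFP reporter in the endogenous Runx1 locus; Endo lacked GFP and c-Kit, and HE expressed GFP with c-Kit low or absent. Pre-HSCs came from Ly6a:GFP transgenic embryos and were gated on GFP together with c-Kit and the endothelial proteins CD31, CD144 and ESAM. FL HSCs were Lin- Sca1+ Kit+ CD150+ CD48- offspring of B6C3F1/J and B6129SF1/J mice. BM HSCs had the same phenotype with CD135 also excluded in the methods, while a supplementary table of the study gives a gate on CD34- in place of CD48 and CD135. The labels give the strain B6129SF1 for every library, whereas the study's methods give several crosses. Endo and HE shared the reporter, the cross and the age and differed in the gate, but in every other comparison cross, age or reporter and gate change together with the population and cannot be told apart from it. Cells of many embryos were pooled, no gate was set on a mural or fibroblast protein, and the study describes the libraries of a population as biological replicates.

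Mural cells, the pericytes and smooth muscle cells, wrap the endothelial tube. Endothelial cells secrete PDGF-B, and its receptor PDGFRβ on pericytes draws these cells to the vessel, while PDGFRα receives PDGF-A and marks fibroblasts and their mesenchymal precursors. Beneath the E10.5 dorsal aorta lies a mesenchyme that is rich in collagens and small proteoglycans and that expresses transcription factors of the lateral plate mesoderm. Endothelial and blood cells are not the usual source of these transcripts, although low levels of some occur in other cells.

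Promoter sequences from RefSeq (GRCm38.p6, a later build than the mm9 build of the expression table) were matched for 6 of the 10 genes, Prrx1, Rgs5, Pdgfra, Cspg4, Tcf21 and Twist1. No promoter entry was matched for Pdgfrb, Cd248, Dcn or Lum. Twist1 and Tcf21 encode basic helix-loop-helix factors, a class that binds the E-box CANNTG, so 3 promoters are shown for the presence or absence of this motif. Each runs from 250 bases before to 50 bases after the annotated start, 5′ to 3′ on the gene's strand, and capitals mark a match to CANNTG or to TATAA. The Twist1 promoter is chr12:33957421-33957720 (+ strand), that of Pdgfra is chr5:75152001-75152300 (+ strand) and that of Rgs5 is chr1:169655251-169655550 (+ strand).
Twist1: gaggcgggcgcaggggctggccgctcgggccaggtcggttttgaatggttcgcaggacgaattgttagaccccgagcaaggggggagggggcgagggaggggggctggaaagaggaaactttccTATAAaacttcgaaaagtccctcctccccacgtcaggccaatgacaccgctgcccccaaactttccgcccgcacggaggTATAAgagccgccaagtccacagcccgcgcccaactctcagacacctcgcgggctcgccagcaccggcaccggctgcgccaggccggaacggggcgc
Pdgfra: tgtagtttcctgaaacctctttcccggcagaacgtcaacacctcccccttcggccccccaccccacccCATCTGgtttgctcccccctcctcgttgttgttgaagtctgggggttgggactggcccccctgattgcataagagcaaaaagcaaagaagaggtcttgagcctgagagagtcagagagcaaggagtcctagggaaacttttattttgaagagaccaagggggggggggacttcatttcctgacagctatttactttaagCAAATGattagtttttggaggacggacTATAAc
Rgs5: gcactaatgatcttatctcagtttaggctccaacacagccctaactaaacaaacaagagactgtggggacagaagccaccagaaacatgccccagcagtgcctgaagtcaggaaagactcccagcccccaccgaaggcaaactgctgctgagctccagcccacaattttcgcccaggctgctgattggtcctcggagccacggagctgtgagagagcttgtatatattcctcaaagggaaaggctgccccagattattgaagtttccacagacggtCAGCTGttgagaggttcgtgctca
Pdgfra held CATCTG and CAAATG and Rgs5 held CAGCTG, and the letters CANNTG were absent from these windows of Twist1, Tcf21, Prrx1 and Cspg4. The motif reads the same on both strands, and 72.3% of the 32851 promoters in the table held it, against 2 of these 6. TATAA, searched on both strands, was found in Twist1, where it began 126 and 47 bases before the start, and in Pdgfra, where it lay after the start; 24.9% of all promoters held it. The GC box GGGCGG or its complement was found in Cspg4 and Twist1 (35.7% of all promoters). CCAAT or its complement was found in Rgs5 and Twist1 (37.4% of all promoters). The windows ranged from 47.7% GC in Prrx1 to 66% in Twist1, with a median of 52.7% over all promoters. These are descriptions of the letters in each window, not of factor binding.

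Expression is given as FPKM as the authors deposited it, which is the fragment count normalized to transcript length and library size. The size of single-fragment steps in the table gave an approximate depth per library (30.9 to 55.7, in units of 1e+06 fragments). The lowest value of any of the 10 genes in an Endo, HE or pre-HSC library then corresponds to about 48 fragments (Cspg4 in Endo), and the highest to about 5841 (Lum in HE). A listed 0 is not always an absence. The spliceosome gene Prpf8, which all cells use, has a value of 0 in pre-HSC replicate 3 but at least 52.3 FPKM in the other pre-HSC libraries. For this reason genes at 0 are described as listed at 0, and a fitted change against such a group is set by the pseudocount and is no measure of size. Markers of the endothelial gate were present, with 8 endothelial genes summing to 1632 to 2405 FPKM in Endo, HE and pre-HSCs. These cells also held transcripts of other cell types. The 5 erythroid genes summed to 7910 to 11260 FPKM in Endo and HE, and 6 germ cell genes to 148 to 216 FPKM in Endo. A fall of a transcript in such bulk libraries can mean fewer cells of a type or less RNA per cell, which cannot be told apart.

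All 10 genes had their highest mean FPKM in HE, as did 15% of the 14708 genes tested. For Cspg4 this was favored by the filter on low values, which it passed through its HE level. Their sum was 49.9 and 108 FPKM for Endo, 177 and 221 for HE, 105, 50.01 and 58.3 for pre-HSCs, then 2.41 and 1.96 for FL HSCs and 4.08 and 5.10 for BM HSCs. The sum was thus highest in both HE libraries, overlapped between Endo and pre-HSCs, and was low in all 4 HSC libraries. Of the 10 genes 6, Cspg4, Rgs5, Dcn, Lum, Tcf21 and Prrx1, were listed at 0 in all 4 HSC libraries (2.86% of tested genes were).

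**Figure D1:**
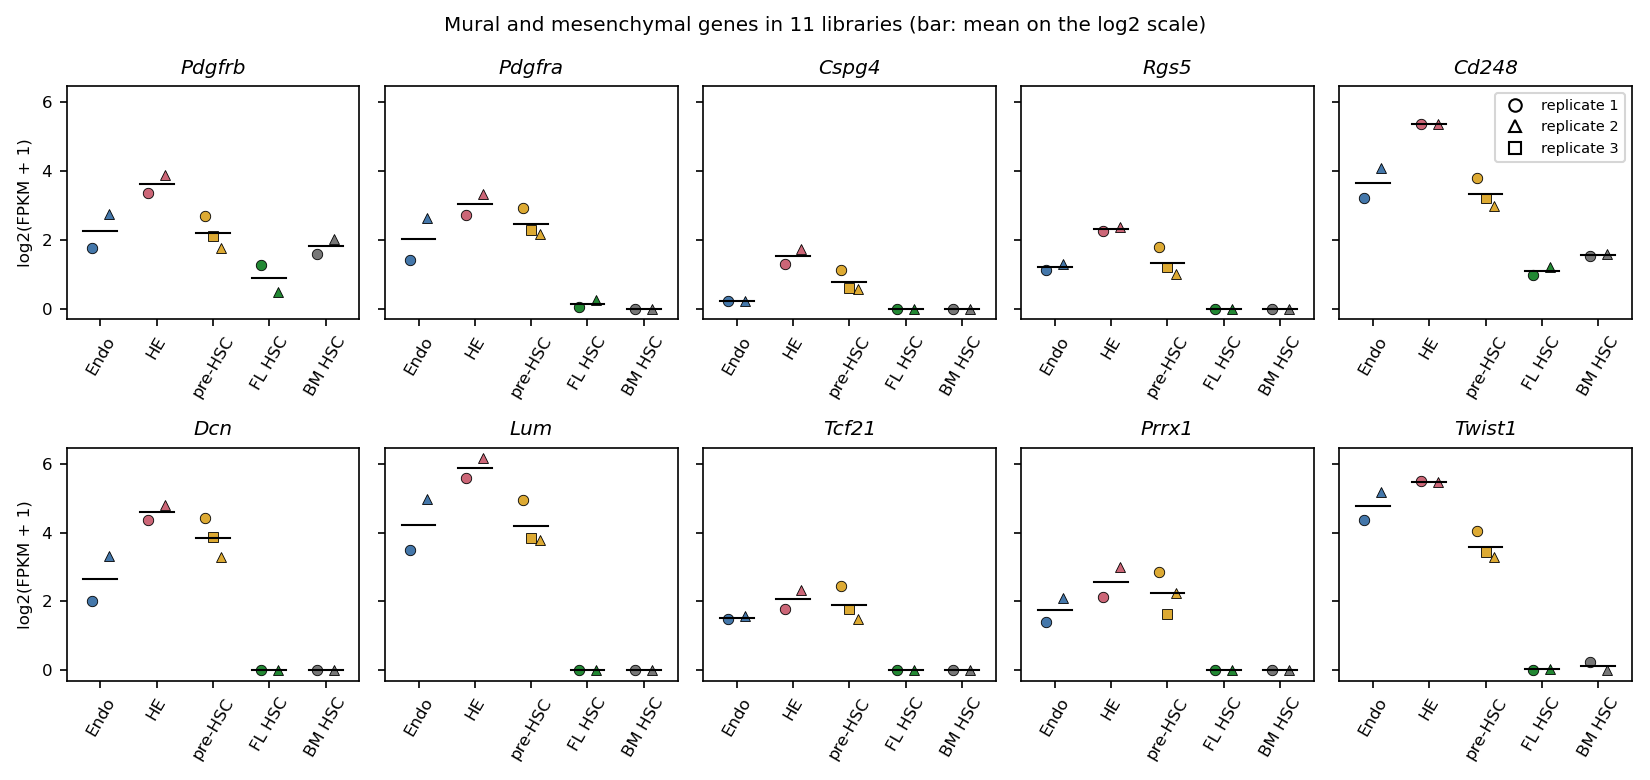
Log2(FPKM + 1) of each of the 10 genes (vertical axis) in every library of the 5 populations (horizontal axis), with symbols for the replicate number and a bar at the mean of each population. Every gene has its highest bar in HE, and 6 of the 10 are listed at 0 in all 4 FL HSC and BM HSC libraries.

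The PDGF receptors were taken first. Pdgfrb, the pericyte receptor for PDGF-B, held 2.41 and 5.73 FPKM in Endo, against 9.29 and 13.8 for HE and 5.42, 2.37 and 3.36 for pre-HSCs, then 1.41 and 0.409 for FL HSCs and 2.03 and 3.08 for BM HSCs. Both HE libraries were above the other 9, and BM HSCs overlapped pre-HSCs. The same order, HE above the other 9, was found in 6 of the 10 genes, Pdgfrb, Cspg4, Rgs5, Cd248, Lum and Twist1, and in 5.6% of tested genes, with Cspg4 favored by the filter on low values that it passed through HE. Pdgfra (chromosome 5, 75548316 to 75594229, + strand, mm9) held 1.68 and 5.18 FPKM in Endo, against 5.65 and 9.06 for HE and 6.57, 3.54 and 3.88 for pre-HSCs, then 0.0313 and 0.188 for FL HSCs, and was listed at 0 in BM HSCs. HE and pre-HSCs overlapped for this receptor. The ratio of Pdgfra to Pdgfrb ran from 0.608 to 0.656 over HE libraries and from 1.15 to 1.49 over pre-HSC libraries, without overlap.

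Cspg4, Rgs5 and Cd248 are the other genes used to recognize pericytes. Cspg4 (chromosome 9, 56712911 to 56747677), which encodes the NG2 proteoglycan, was the least expressed per length of the 10 genes in every Endo, HE and pre-HSC library, with 0.156 and 0.171 FPKM for Endo, 1.46 and 2.36 for HE and 1.16, 0.501 and 0.506 for pre-HSCs. Its Endo, HE and pre-HSC libraries did not overlap between populations, and the HE mean of 1.91 ± 0.637 (SD, n = 2) was 11.7-fold the Endo mean. The high place of HE was favored by the filter on low values, which Cspg4 passed through its HE level. Rgs5 (chromosome 1, 171585632 to 171625944), a regulator of G protein signaling in pericytes, held 1.20 and 1.48 FPKM in Endo, against 3.81 and 4.205 for HE and 2.44, 1.02 and 1.33 for pre-HSCs. Pre-HSCs spanned the Endo values. Cd248 (chromosome 19, 5068078 to 5070637), a single-exon gene for endosialin on pericytes and fibroblasts, held 8.29 and 16.1 FPKM in Endo, against 40.5 and 40.5 for HE and 13.0, 6.85 and 8.25 for pre-HSCs, then 0.969 and 1.33 for FL HSCs and 1.88 and 2.02 for BM HSCs. Both HE libraries lay far above the rest, and Cd248 and Pdgfrb were the 2 genes with every BM HSC library above every FL HSC library (29.7% of tested genes were in that order).

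Dcn and Lum encode decorin and lumican, small leucine-rich proteoglycans that bind collagen fibrils. They are neighbors on chromosome 10, + strand, with Dcn at 96942245 to 96980777 and Lum after a gap of 47357 bases. Lum held 10.3 and 30.3 FPKM in Endo, against 46.5 and 70.7 for HE and 30.0, 12.6 and 13.2 for pre-HSCs. It had the highest mean per length of the 10 genes in HE, where both libraries exceeded all others. Dcn held 3.02 and 8.99 FPKM in Endo, against 19.7 and 26.7 for HE and 20.2, 8.78 and 13.5 for pre-HSCs, so that pre-HSC replicate 1 fell between the HE libraries. The Dcn to Lum ratio was 0.294 and 0.297 in Endo, 0.424 and 0.378 for HE and 0.676, 0.695 and 1.02 for pre-HSCs, without overlap between the populations. With 2 against 3 libraries an exact two-sided permutation test cannot go below p = 0.2, the value it gave between HE and pre-HSCs, and with 2 against 2 it gave 0.333 between Endo and HE, also its smallest. The next genes of this cluster, Kera and Epyc, which encode keratocan and epiphycan, did not exceed 0.0495 and 0.16 FPKM in any library.

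Tcf21, Prrx1 and Twist1 are mesenchymal transcription factors. Twist1 (chromosome 12, 34642536 to 34644682), a factor of mesoderm and of the epithelial to mesenchymal transition, held 19.4 and 35.3 FPKM in Endo, against 43.8 and 43.1 for HE and 15.4, 8.73 and 9.74 for pre-HSCs, then 0 and 0.0309 for FL HSCs and 0.177 and 0 for BM HSCs. It was the only one of the 10 with both Endo libraries above all 3 pre-HSC libraries (22.6% of tested genes were). Tcf21 (chromosome 10, 22537085 to 22539934), a factor of fibroblast precursors in heart, lung and kidney, held 1.79 and 1.96 FPKM in Endo, against 2.45 and 4.05 for HE and 4.44, 1.81 and 2.43 for pre-HSCs. Prrx1 (chromosome 1, 165175247 to 165243841), a homeobox factor of limb and lateral plate mesenchyme, held 1.67 and 3.28 FPKM in Endo, against 3.36 and 6.95 for HE and 6.16, 3.77 and 2.12 for pre-HSCs. Neither Tcf21 nor Prrx1 separated HE from pre-HSCs. Prrx1 overlaps the non-coding genes Gm20471 on the other strand and Gm17698 on its own, and a library without strand could not assign shared reads between the first pair. The sources do not state whether strand was used.

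The first comparison, between Endo and HE, asks how endothelial cells with Runx1 reporter signal differ from those without it. In every one of the 10 genes both HE libraries were above both Endo libraries, an order found in 21.3% of tested genes. The log2 fold changes on the log2(FPKM + 1) scale ran from 0.54 (Tcf21) to 1.92 (Dcn), with a median of 1.20 against 0.03 over all tested genes. The size depended on the Endo library used, with Dcn at 1.26 without Endo replicate 1 and 2.58 without replicate 2, Lum at 0.90 and 2.38 and Pdgfra at 0.40 and 1.61. Twist1 was at 0.29 without Endo replicate 1, and Tcf21 and Prrx1 were at 0.27 and 0.37 without HE replicate 2. None of the 10 was called by limma, where a call needed an F test across populations with an adjusted p under 0.01, a pairwise adjusted p under 0.05 and a 2-fold change; only 0.129% of tested genes met this. The lowest adjusted p in this comparison was 0.128, for Cd248, with a log2 fold change of 1.72 (SE 0.32). At an unadjusted p under 0.05 with a 2-fold rise 7 of the 10 passed, against 1.99% of tested genes: Pdgfrb, Pdgfra, Cspg4, Rgs5, Cd248, Dcn and Lum. Cspg4 passed the filter on low values only because of its HE level, so its rise was favored by the filter and the count without it is 6 of 9. The 3 transcription factors were the ones that did not, at log2 fold changes of 0.54 for Tcf21, 0.80 for Prrx1 and 0.71 for Twist1. Markers of other cells moved between the same libraries. All 7 epithelial genes were higher in HE (median log2 fold change 1.85, none called), 4 contractile genes rose, and 4 of 6 germ cell genes fell; their part in the values of the 10 genes was not tested.

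Between HE and pre-HSCs, the step at which blood identity is gained, 4 of the 10 genes fell and none rose, where 4.34% of tested genes fell. Cd248 fell the most, with a log2 fold change of -2.04 (adjusted p = 0.0015 in limma, SE 0.29). The fall of Twist1 was -1.89 (adjusted p = 0.0017 in limma, SE 0.28). Lum and Pdgfrb fell with log2 fold changes of -1.68 (adjusted p = 0.0227 in limma, SE 0.45) and -1.44 (adjusted p = 0.0226 in limma, SE 0.39). Rgs5 and Cspg4 passed the adjusted p (0.0142 and 0.0335 by limma) and stayed under the 2-fold limit at -0.98 and -0.76. Both were called after quantile normalization, at -1.30 and -1.04. For both genes, as for the 4 that fell, the HE libraries did not overlap the pre-HSC libraries (6 of 10, against 26.4% of tested genes). In Cspg4 this order was favored by the filter on low values, which it passed through its HE level. Pdgfra, Dcn, Prrx1 and Tcf21 were at -0.57, -0.73, -0.31 and -0.16 with adjusted p from 0.195 to 0.708 by limma. The median over the 10 genes was -0.87, against 0.09 over all tested genes. The calls of Lum and Pdgfrb ended without HE replicate 1 or 2 or without pre-HSC replicate 2 or 3 (adjusted p = 0.0607 to 0.123 for Lum and 0.0515 to 0.122 for Pdgfrb by limma), that of Pdgfrb also missed the F test without FL HSC replicate 2, and Rgs5 was called, at -1.21, without pre-HSC replicate 1. Both comparisons use the same HE libraries. At this step 7 of 7 epithelial, 5 of 5 erythroid and 4 of 5 tested neural genes also fell and 5 of 5 macrophage genes rose, and whether these bear on the 10 genes was not tested. None of the 8 endothelial genes was called lower, and Tek and Emcn, 2 of the 8, were called higher in pre-HSCs.

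**Figure D2:**
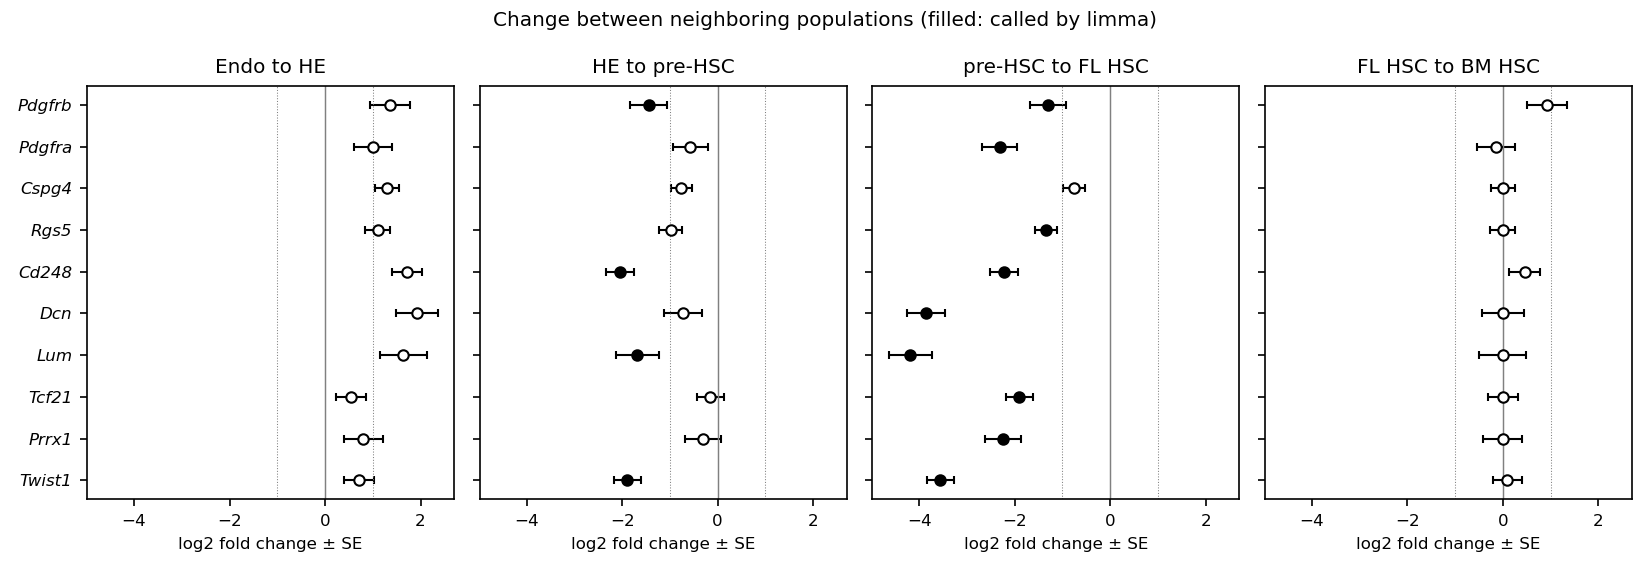
Log2 fold change with its standard error (horizontal axis, from log2(FPKM + 1)) of the 10 genes (vertical axis) in each of the 4 steps between neighboring populations. Filled points were called by limma and dotted lines mark a 2-fold change; all 10 points lie right of 0 from Endo to HE with none filled, and 4 are filled left of 0 from HE to pre-HSC.

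From Endo to pre-HSCs directly, Twist1 was the only gene called, with a log2 fold change of -1.19 (adjusted p = 0.0141 in limma, SE 0.28), where 2.57% of tested genes fell. Dcn was at 1.19 in the opposite direction with an adjusted p of 0.0513 by limma, which is not a call. The remaining 8 ran from -0.33 (Cd248) to 0.54 (Cspg4). Without Endo replicate 2 the call of Twist1 ended at a log2 fold change of -0.77 and Dcn was called at 1.85, and without pre-HSC replicate 2 both were called.

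Entry into the FL HSC stage came with a fall of 9 of the 10 genes, against 13.9% of tested genes. All 10 had every pre-HSC library above both FL HSC libraries (29.4% of tested genes did). Lum and Dcn were listed at 0 in both FL HSC libraries and Twist1 in 1 of them, so the size of their fall is not given, and limma's adjusted p was 5.04e-05 for Lum, 3.77e-05 for Dcn and 6.23e-06 for Twist1. Cspg4 was not called at -0.76, which the pseudocount compresses, since it was called at -1.25 with a pseudocount of 0.5. The median over the 10 genes was -2.24 with a pseudocount of 1, -2.87 with 0.5 and -4.68 with 0.1, and it depends on this choice because 6 genes were listed at 0 in FL HSCs. Pdgfrb had one of the smaller falls at -1.30 (adjusted p = 0.0184 in limma, SE 0.39), and this call ended without HE replicate 2, pre-HSC replicate 1 or FL HSC replicate 2 (log2 fold changes of -1.30, -1.06 and -0.92). Endothelial genes, which the FL HSC gate did not require, fell at the same step, 8 of 8 tested.

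Between FL and BM HSCs none of the 10 was called by limma and none passed an unadjusted p under 0.05, while 10.1% of tested genes were called. The receptors still measured there were Pdgfrb, at a log2 fold change of 0.93 (adjusted p = 0.143 in limma, SE 0.42), and Cd248 at 0.46 (adjusted p = 0.346 in limma, SE 0.32). In BM HSCs Pdgfrb held 49.7% and 60.3% of the summed FPKM of the 10 genes and Cd248 held 46.0% and 39.7%, which left little for the other 8. The BM HSC and pre-HSC levels of Pdgfrb were not told apart either, at -0.37 (adjusted p = 0.443 in limma, SE 0.39), whereas Cd248 was lower in BM HSCs at -1.77 (adjusted p = 0.00074 in limma, SE 0.29). Set against HE, all 10 genes were lower in FL HSCs and in BM HSCs (14.6% and 16.3% of tested genes), and set against Endo, 9 were lower in FL HSCs (13%) and 8 in BM HSCs (15.1%), where Pdgfrb and Cspg4 missed the call. The fall of Cspg4 from HE was favored by the filter on low values, which it passed through its HE level. Every Endo, HE and pre-HSC library was above all 4 HSC libraries in 9 genes, all but Pdgfrb (17.1% of tested genes). In the order of mean levels HE came first for every gene. Pre-HSCs came next for Pdgfra, Cspg4, Rgs5, Dcn, Tcf21 and Prrx1, and Endo for Pdgfrb, Cd248, Lum and Twist1. Endo and pre-HSCs were neighbors in that order for every gene, and differed by the call for Twist1 alone, which Dcn replaced (1.42, adjusted p = 0.0379 in limma) when FPKM were scaled to equal totals.

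Libraries of 1 population differed in these genes, mostly in the same direction within Endo, HE and pre-HSCs. Endo replicate 2 was above replicate 1 in all 10 genes (59.2% of tested genes), by 1.09-fold for Cspg4 to 3.09-fold for Pdgfra. Pdgfra, Dcn and Lum differed by at least 1 on the log2 scale, which 1.69% of tested genes did. Cspg4, Tcf21 and Rgs5 differed by at most 1.24-fold. The median difference of the 10 genes was 0.86 on the log2 scale, where the median of all tested genes was 0.08 and their 95th percentile 0.71.

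HE replicate 2 was above replicate 1 in 8 of 10 genes (54.8% of tested genes), from 1.10-fold for Rgs5 to 2.07-fold for Prrx1. Cd248 (40.5 FPKM in both) and Twist1 (43.1 against 43.8 FPKM) were even between these libraries. Among pre-HSCs replicate 1 was highest in all 10 genes (31.8% of tested genes), by 1.63-fold for Prrx1 to 2.45-fold for Tcf21 over replicate 2 and by 1.498-fold for Dcn to 2.90-fold for Prrx1 over replicate 3. Replicate 2 was lowest of the 3 in 9 of 10 genes (34.3% of tested genes), and Prrx1, lowest in replicate 3, was the exception. In 8 of the 10 genes, all but Cd248 and Twist1, the highest libraries were Endo replicate 2, HE replicate 2 and pre-HSC replicate 1 at once (15.4% of tested genes). The residual SD over all populations on the log2 scale was 0.60 for Lum, 0.51 for Dcn and 0.49 for Pdgfrb, larger than that of 94.3%, 91.6% and 90.8% of tested genes. It was 0.22 for Cspg4 and 0.24 for Rgs5, near the median of 0.23, on a scale that compresses the spread of genes with low FPKM. In pre-HSCs the highest over the lowest FPKM was 2.32 for Cspg4 and 2.39 for Rgs5, against 2.37 for Lum and 2.31 for Dcn. For the same genes in this order it was 1.09, 1.24, 2.96 and 2.98 in Endo and 1.62, 1.10, 1.52 and 1.35 in HE. FL HSCs showed no common direction, Pdgfrb being 0.290-fold and Cd248 1.38-fold in replicate 2 against replicate 1, and in BM HSCs these genes were 1.52-fold and 1.08-fold in replicate 2.

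**Figure D3:**
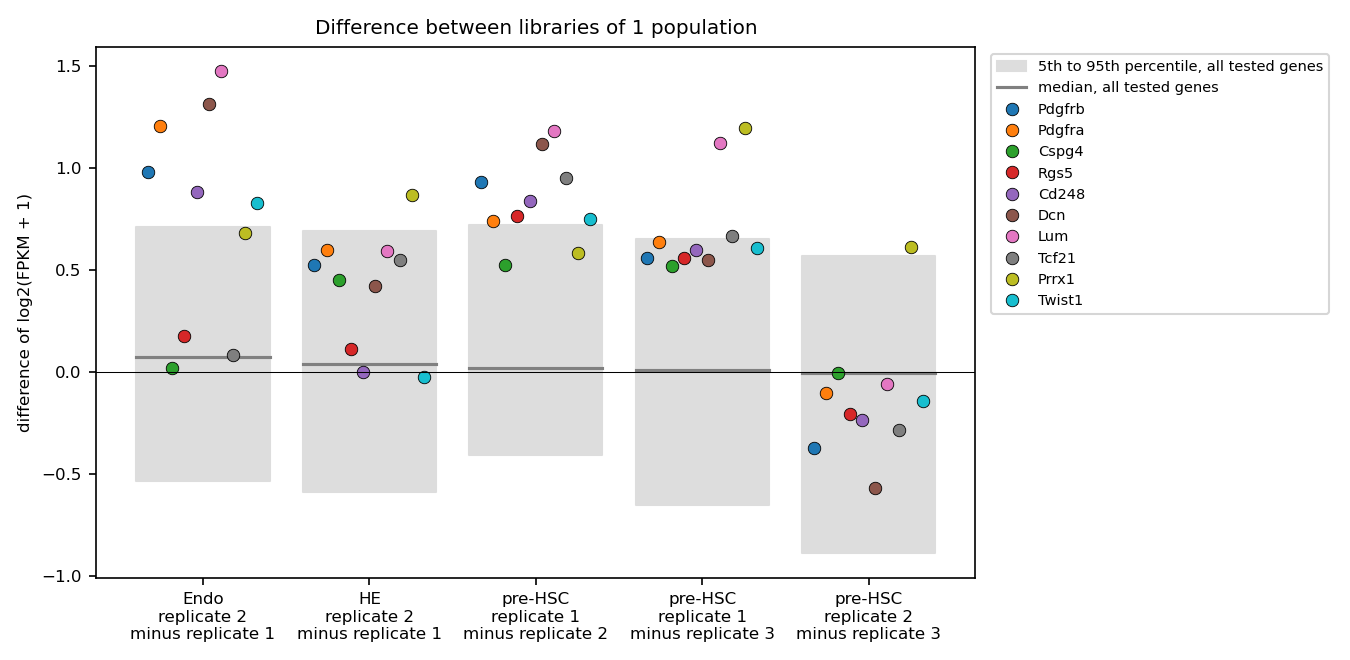
Difference of log2(FPKM + 1) between libraries of the same population (vertical axis) for each of the 10 genes, in 5 pairs of libraries (horizontal axis). The grey box spans the 5th to 95th percentile of all 14708 tested genes; all 10 genes are above 0 for Endo replicate 2 minus 1 and for pre-HSC replicate 1 minus either other library.

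Markers of other cells also differed between these libraries. All 7 epithelial genes were higher in Endo replicate 2 than in replicate 1, where they summed to 185 and 59.0 FPKM, and 11 of 12 fibroblast matrix genes were, with sums of 573 and 195. In HE the epithelial genes went the other way, with 7 of 7 lower in replicate 2 (255 against 527 FPKM) while 8 of the 10 mural and mesenchymal genes were higher there. Neural genes went with the 10 genes, 5 of 5 being higher in replicate 2 of both Endo and HE, and so did hepatocyte genes, 4 of 4 in both. The fibroblast matrix genes were near even in HE, 6 of 12 being higher in replicate 2. The 12 contractile smooth muscle genes summed to 302 and 283 FPKM in Endo and 872 and 876 in HE, so they did not share the differences between libraries of these populations. In pre-HSCs, 7 of 7 epithelial genes, 10 of 12 fibroblast matrix genes and 9 of 11 tested contractile genes were higher in replicate 1 than in replicate 2. Macrophage genes summed to 246, 82.0 and 466 FPKM in pre-HSC replicates 1, 2 and 3, so replicate 3 rather than replicate 1 was highest, and endothelial genes differed little, at 2173, 2405 and 2175 FPKM. Hepatocyte genes went against the 10 genes in pre-HSCs, with 3 of 4 lower in replicate 1 than in replicate 2 and 4 of 4 lower than in replicate 3. Neural genes went with the 10 genes there, 4 of 5 and 5 of 5 being higher in replicate 1. Hepatocyte genes stayed at or under 30.0 FPKM in sum in every library. The part of other cells in the levels of the 10 genes was not tested.

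**Figure D4:**
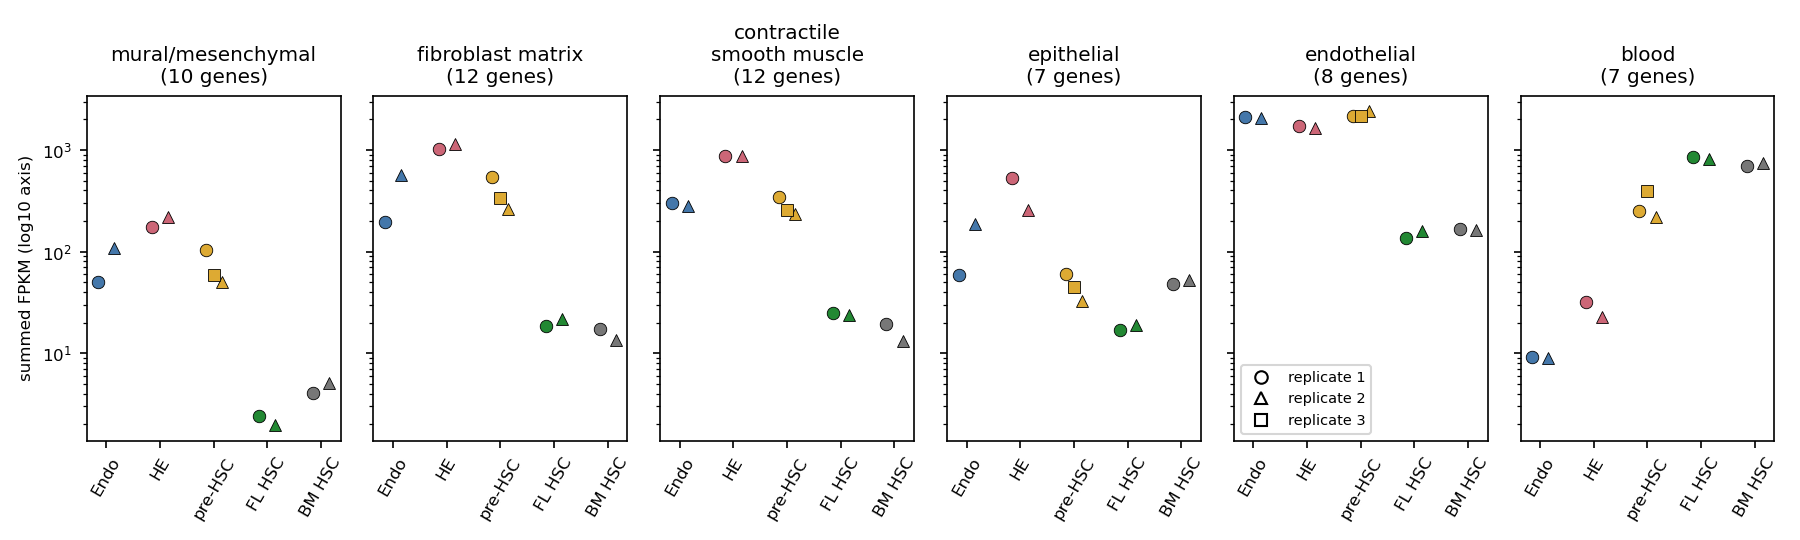
Summed FPKM (vertical log10 axis) of the 10 genes and of 5 lists of cell type markers in each library of the 5 populations, with symbols for the replicate number. The 10 genes, the fibroblast matrix genes, the contractile genes and the epithelial genes are highest in HE, but epithelial genes are higher in HE replicate 1 and the 10 genes in HE replicate 2.

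The shares of Twist1, Dcn and Cd248 in the sum of the 10 genes differed between Endo, HE and pre-HSCs without overlap. Those of Pdgfrb, Rgs5 and Lum overlapped between Endo and pre-HSCs. The shares of Pdgfra, Prrx1 and Tcf21 were higher in every pre-HSC library than in Endo and HE, and that of Cspg4 was lowest in Endo. Shares were taken only within the 10 genes, so no value over all tested genes stands beside them. Twist1 held 38.9% and 32.5% of the sum in Endo, 24.8% and 19.5% for HE and 14.7%, 17.5% and 16.7% for pre-HSCs, a decline without overlap between populations. Dcn held 6.05% and 8.28% in Endo, 11.2% and 12.1% for HE and 19.3%, 17.6% and 23.2% for pre-HSCs, the reverse order, again without overlap. Cd248 held 16.6% and 14.8% in Endo, 22.9% and 18.3% for HE and 12.4%, 13.7% and 14.1% for pre-HSCs, so its share was highest in HE. Pdgfrb kept to 4.74% to 6.24% of the sum in all 7 of these libraries. These shares compare FPKM per length, and an exact permutation test of 2 or 3 libraries against 2 cannot pass 0.05 (smallest p = 0.333 between Endo and HE and 0.2 between HE and pre-HSCs). The Prrx1 to Twist1 ratio ran from 0.0858 to 0.0929 in Endo, 0.0766 to 0.161 in HE and 0.218 to 0.433 in pre-HSCs. That of Tcf21 to Twist1 ran from 0.0555 to 0.0921, 0.0560 to 0.0940 and 0.208 to 0.289. Both ratios overlapped between Endo and HE and were higher in pre-HSCs. The ratios of Cd248 to Lum and of Rgs5 to Pdgfrb overlapped between Endo, HE and pre-HSCs. Of the ratios given here, only that of Dcn to Lum was tested.

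**Figure D5:**
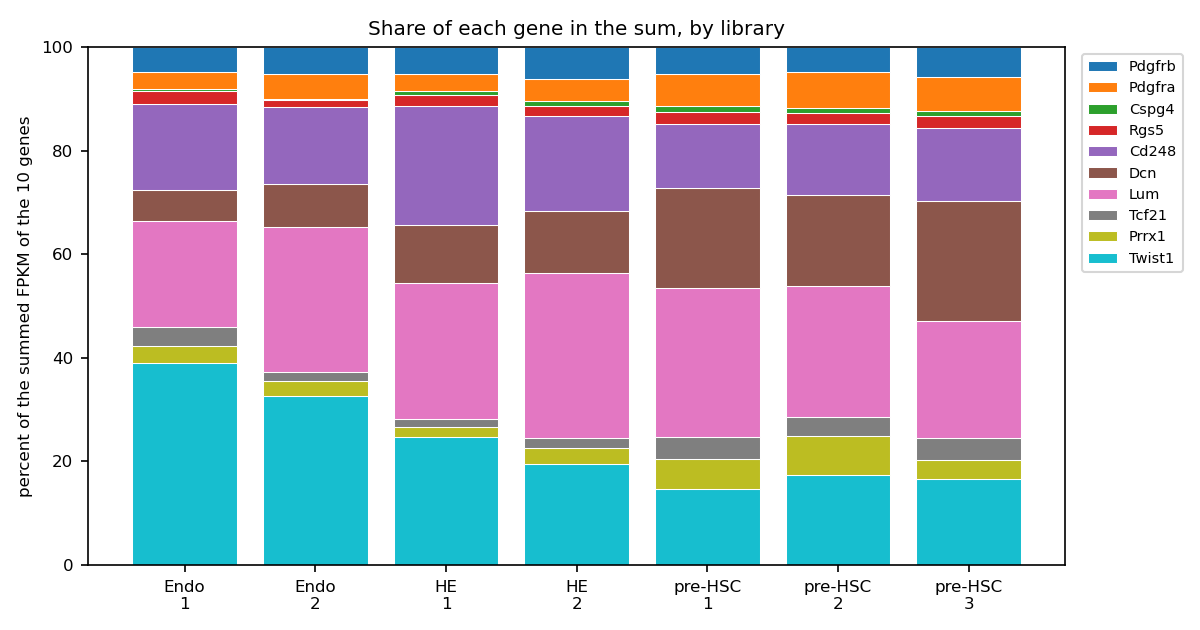
Percent of the summed FPKM of the 10 genes (vertical axis, stacked) held by each gene in the 7 Endo, HE and pre-HSC libraries (horizontal axis). The Twist1 share is smaller in each HE library than in both Endo libraries and smaller still in pre-HSCs, and the Dcn share grows in the same order.

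Ligands of the PDGF receptors were present in the same libraries. Pdgfb, the ligand that endothelium presents to pericytes, held 48.8 and 52.3 FPKM in Endo, against 51.3 and 42.2 for HE and 33.8, 38.3 and 39.2 for pre-HSCs, then 11.4 and 10.1 for FL HSCs and 6.85 and 7.08 for BM HSCs. Unlike Pdgfrb it had no peak in HE, with a log2 fold change of -0.12 (adjusted p = 0.968 in limma, SE 0.14) from Endo. Pdgfa, Pdgfb and Pdgfd, 3 of the 4 ligands, fell from pre-HSCs to FL HSCs, and Pdgfc did not pass (-0.35, SE 0.34). No ligand was called between Endo and HE or between HE and pre-HSCs. Pdgfd, a further ligand of PDGFRβ, held 2.81 and 2.62 FPKM in Endo, against 2.28 and 2.36 for HE and 3.77, 4.51 and 4.06 for pre-HSCs.

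Of 11 other pericyte genes 9 were tested. Their median log2 fold change from Endo to HE was 0.68, with 8 of 9 above 0 and none called. From HE to pre-HSCs 3 fell (Vtn, Ndufa4l2 and Heyl) and 2 rose (Anpep and Angpt1), with a median of -0.81. Ndufa4l2, a mitochondrial protein enriched in pericytes, was at 9.77 and 7.41 FPKM in HE and 1.13, 0.884 and 0.340 in pre-HSCs. Angpt1, the ligand of Tie2 that HSCs also make, took another course than the mural genes and reached 153 and 145 FPKM in BM HSCs. Higd1b, another pericyte marker, was listed at 0 in all 11 libraries.

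Of 16 other mesenchymal transcription factors 14 had a row and 13 were tested. None was called between Endo and HE, where the median was 0.51. From HE to pre-HSCs 5 of 13 fell, Prrx2, Twist2, Snai1, Meox1 and Msx1, and Zeb2 rose, with a median of -0.59. The paralogs of both listed factors fell at this step, Twist2 by a log2 fold change of -1.43 (adjusted p = 0.00913 in limma, SE 0.31) and Prrx2 by -2.46 (adjusted p = 0.00121 in limma, SE 0.34), while Prrx1 itself was not called. Prrx2 held 5.76 and 12.9 FPKM in Endo, against 17.6 and 18.8 for HE and 3.97, 2.41 and 1.48 for pre-HSCs, and like Twist1 it had both Endo libraries above all pre-HSC libraries. At the later step to FL HSCs 11 of 13 fell.

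Among the 12 fibroblast matrix genes, none was called between Endo and HE (median 1.18), and 4 fell from HE to pre-HSCs (Col1a1, Col3a1, Fbln1 and Postn) while Mfap5 rose (median -1.11). Col1a1, the main chain of type I collagen, held 32.8 and 187 FPKM in Endo, against 356 and 370.1 for HE and 150.1, 58.2 and 83.0 for pre-HSCs, with the same library highest in each population as for Dcn and Lum. Of 8 other small leucine-rich proteoglycans only Bgn and Fmod were tested. Fmod, which encodes fibromodulin, was at 3.19 and 4.92 FPKM in HE and 5.85, 2.68 and 2.86 in pre-HSCs. Bgn, which encodes biglycan, differed from Dcn and Lum in that it rose from HE to pre-HSCs by a log2 fold change of 1.15 (adjusted p = 0.00557 in limma, SE 0.22) and was at 16.5 and 25.0 FPKM in BM HSCs. Contractile genes were the only one of these mesenchymal lists with calls between Endo and HE, 4 of 11 tested, Acta2, Tagln, Myl9 and Cnn1. Acta2, smooth muscle actin, held 67.8 and 61.1 FPKM in Endo, against 303 and 284 for HE and 87.2, 50.2 and 60.8 for pre-HSCs, which is a log2 fold change from Endo of 2.17 (adjusted p = 0.0092 in limma, SE 0.22). Of the 4 bone marrow stromal genes Adipoq was listed at 0 in all libraries, and Cxcl12, at 35.1 and 50.3 FPKM in HE, was at or under 0.121 in BM HSCs. Kitl was at 9.62 and 14.5 FPKM in HE and 1.41 and 0.501 in BM HSCs. Lepr was at 0.600 and 1.58 FPKM in HE and 0.0862 and 0 in BM HSCs. From HE to pre-HSCs Cxcl12 was called lower, while 2 of the 3 tested stromal genes had changes above 0 without a call. Heyl, Snai1, Zeb2, Fbln1, Mfap5, Higd1b, Adipoq and Myl9 were named after their values were seen. Tek and Emcn were named for the size of their change from HE to pre-HSCs.

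The mean of the 10 standardized profiles was compared with every other tested gene over the 11 libraries. Per member, Pearson's r with this mean ran from 0.88 for Pdgfrb and 0.90 for Cspg4 to 0.99 for Lum and Rgs5. The mean includes the member itself, which raises these values, and it does not include the genes that follow. The 10 other genes most like it were Spon1, Bicc1, Gpr153, Lrrn1, Mab21l2, Ntrk2, Rnd3, Wt1, Col4a5 and Pcdh18, with r from 0.989 to 0.994. Ntrk2 reached FPKM 1 in the HE libraries alone (1.18 and 1.35), so its likeness was favored by the filter on low values. The points share the libraries and their low levels in the 4 HSC libraries, so the values are descriptions. Spon1, which encodes the matrix protein F-spondin, held 1.70 and 4.07 FPKM in Endo, against 5.48 and 8.59 for HE and 4.98, 2.51 and 2.70 for pre-HSCs. Wt1, a factor of the mesothelium and the urogenital ridge beside the aorta, held 0.867 and 2.63 FPKM in Endo, against 3.96 and 5.08 for HE and 3.91, 2.16 and 2.05 for pre-HSCs. For both, as for 8 of the 10 genes, replicate 2 was the higher one in Endo and HE and replicate 1 the highest in pre-HSCs. This order is largely set by the way both were picked, for likeness to the 10 genes over these same libraries. Wt1 also stands among the 13 tested mesenchymal factors above.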

How the data were processed

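Poly(A) RNA of the 11 sorted-cell libraries was sequenced as paired ends. Reads were placed on mm9 with TopHat and filtered to unique alignments, and the authors deposited FPKM for each gene in a single table. Per the submitters' processing notes Cufflinks, Subread, featureCounts and edgeR were also used, and which of these wrote the FPKM was not stated. Gene symbols and positions came from the GENCODE M1 annotation of NCBIM37 (37038 of 37820 IDs, 97.9%). FPKM multiplied by exon length of 7922 single-transcript genes of at least 1000 bases fell at 1, 2 and 3 fragments, which gave the approximate depth of each library, without exact counts.

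Limma 3.58.1 (R 4.3.3) was run on log2(FPKM + 1) with a trend and all 11 libraries for the 14708 genes that reached FPKM 1 in 2 or more libraries, with Benjamini-Hochberg adjustment over these genes. All 10 genes passed this filter, Cspg4 through HE and 1 pre-HSC library. SE stands for standard error. The design stood in for the count test of the study's methods. The fit was tested on simulated data.

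The members and the gene lists were chosen with earlier results of these data known, and the unadjusted p and the library orders were counted after the values were seen. Named genes were the 10 members, the 4 PDGF ligands, up to 4 genes of each list with the largest change from HE to pre-HSCs at a mean FPKM of at least 1 in HE, and the 10 genes most like the members. Alternatives were other pseudocounts, filters, scalings and limits, a replicate block, fits of only the compared populations, and each library left out. Deviations of same-numbered libraries correlated weakly, at 0.12 between Endo and HE over the tested genes. The study lists the same number of embryos for Endo and HE, so these libraries may share embryos. The main fit used no pairing. The list genes Foxc2, Foxf1a and Tubb3 were not analysed here. Python 3.11.15 with scipy 1.17.1 gave the permutation tests and matplotlib 3.10.9 the plots.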

Additional observations from a re-analysis of the deposited data

How the results depend on the processing

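Under every alternative none of the 10 genes was called between FL and BM HSCs, nor between Endo and HE, and 7 to 10 were called between pre-HSCs and FL HSCs, with 7 where Cspg4, Rgs5 and Tcf21 were removed by the filter at a FPKM of 5 and where only the populations compared were fitted. Between HE and pre-HSCs the count of 4 became 2 with no filter, with the stricter pairwise limit of 0.01 and with a replicate block, and 0 in a fit of only the populations compared, which has fewer libraries; it became 5 with the pseudocount 0.5, where Rgs5 was added, and 6 after quantile normalization, where Rgs5 and Cspg4 were added, and leaving out 1 library gave 2 to 5. With the pseudocount 0.1 the count was 3, as Pdgfrb was lost, and it was 3 with FPKM scaled to equal totals, as Lum was lost. Pdgfrb and Lum were also the calls lost with no filter, with the limit of 0.01 and with the replicate block. Cd248 and Twist1 remained called in each of these settings except the fit of only the populations compared. There the adjusted p was 0.0113 by limma for both, and the F test was missed. Between Endo and pre-HSCs the count of 1 became 0 with the pseudocount 0.1, with the stricter limit of 0.01 and with only the populations compared, and 2 with a filter at a FPKM of 5; leaving out 1 library gave 1 to 2. The count stayed at 1 with FPKM scaled to equal totals and without Endo replicate 2, but the gene called was Dcn and no longer Twist1. The uncalled log2 fold changes of Tcf21 and Prrx1 from HE to pre-HSCs turned in sign when 1 library was left out, with Tcf21 at 0.12 without HE replicate 2, 0.05 without pre-HSC replicate 2 and -0.43 without HE replicate 1, and Prrx1 at 0.12 without HE replicate 2 and -0.75 without HE replicate 1. Where no cause is named, the cause was not tested. With the replicate block, pre-HSC replicate 3 had no partner. The deviations of same-numbered libraries correlated from -0.16 to 0.16 in 20 pairs, 8 of them above 0.1. Where both populations had 2 libraries, both replicates give the same value by construction, so these 20 are not all separate. The main fit did not read the numbers as pairs. Over all tested genes, 1026 rose and 639 fell from HE to pre-HSCs, against 802 and 832 after quantile normalization and 1312 and 476 after scaling FPKM to equal totals; 1013 were called without HE replicate 1 and 370 with only the populations compared, in place of 1665. From Endo to HE, 19 genes were called, and 0 to 31 under the alternatives. The median differences between libraries of 1 population kept their direction under other pseudocounts and scalings. Most populations had 2 libraries, which limits the precision.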
